A study of Mus musculus with 9 samples.

Results

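The genes described here encode enzymes that spend UDP-N-acetylglucosamine (UDP-GlcNAc) outside the cycling of O-GlcNAc: the N-glycan branching transferases Mgat1, Mgat2, Mgat3, Mgat4a, Mgat4b and Mgat5 and the hyaluronan synthases Has1, Has2 and Has3. The members were every probe set of the expression array whose platform annotation gives one of these 9 symbols, which made 16 of 45037 non-control probe sets and 9 of 18193 genes with a symbol of their own. The rule goes by symbol alone, but the genes were picked with earlier results of these data known. They were measured in 3 lines of mouse embryonic fibroblasts (MEFs), fibroblast cultures grown from embryos, kept in DMEM and here from female embryos at E12.5. The KO line lacked Oga, which encodes O-GlcNAcase, the Het line was heterozygous for its loss and the WT line was wild type, with 3 arrays each. The animals came from intercrosses of Oga heterozygotes, which were obtained by crossing a floxed Oga male on a C57B1/6 background with an MMTV-cre female of the strain B6129-Tgn(MMTV-Cre)1Mam. The MMTV promoter is best known for driving Cre in mammary and other secretory epithelia, and the sources used here do not say where it acted in these crosses. Each genotype is 1 line with 1 line code in the labels, and its 3 arrays are technical replicates. Every p-value below therefore measures the spread between arrays of a line, and genotype cannot be told apart from any other difference between the 3 lines.

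UDP-GlcNAc is the end product of the hexosamine pathway and the donor for O-GlcNAc, for the branches of N-glycans and, together with UDP-glucuronate, for hyaluronan. In the Golgi, MGAT1 places the first GlcNAc on the trimmed mannose core, MGAT2 starts the other arm of a complex glycan, MGAT4A and MGAT4B add a branch on the arm that MGAT1 began, and MGAT5 adds a branch on the arm that MGAT2 began. MGAT3 adds the bisecting GlcNAc, which blocks further branching. Hyaluronan is made at the plasma membrane by the HAS enzymes, of which HAS2 is the main one in embryonic mesenchyme and fibroblasts.

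Values are the authors' deposited log2 expression values, and a log2 difference of 1 is 2-fold. A probe set was called when limma's adjusted p was below 0.05 and the difference reached 2-fold. The words rose and fell are kept for such calls, and a probe set past the adjusted p threshold alone is given as higher or lower. Probe sets with a mean over all arrays below 6.22, the lowest 40%, were marked as low. This held for 3 of the 16 member probe sets, 1 each of Mgat3, Mgat5 and Has3, while 13 lay above it. Of these 13, Mgat3 at 1422145_at, with a mean of 6.2251, was only just above the limit of 6.2248. Has3 had no other probe set, so 8 of the 9 genes were measured above this value.

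The arrays correlated at r = 0.997 to 0.999 within lines and at 0.989 to 0.996 between lines. Oga averaged 6.06 ± 0.026 in KO, 11.16 in Het, where the 3 arrays held 1 and the same value, and 11.92 ± 0.033 in WT arrays (SD, n = 3 each) at the probe set with its highest mean. All 10 measured fibroblast markers lay above the low-value limit in these cultures, and 1 of them, the PDGF receptor gene Pdgfra, fell in KO against WT (log2 difference -2.55). Past the adjusted p threshold 1 was higher and 6 lower in KO against WT, where 15.7% of all genes were higher and 22.8% lower. Their sum on the linear scale ran from 132000 to 138000 in KO and from 143000 to 144000 in Het arrays, and was 148000 in WT arrays. All 19 macrophage and blood markers were also above the low-value limit. Of these 18 fell in KO against WT and 0 rose, 17 fell in KO against Het, and 0 were called in Het against WT; the sum of their values on the linear scale ran from 19300 to 20300 in KO, from 53000 to 55600 in Het and from 66500 to 68200 in WT arrays. Of 12 skeletal muscle markers 7 rose in KO against WT, with sums of 5220 to 5360 in KO, 3260 to 3610 in Het and 2240 to 2340 in WT arrays. Of 7 cartilage markers 3 fell in KO against WT (sums of 2840 to 2970 in KO, 3520 to 3850 in Het and 4090 to 4280 in WT arrays), and of 10 epithelial and mesothelial markers 2 rose (1750 to 1860 in KO, 1230 to 1240 in Het and 1160 to 1190 in WT arrays). Among 6 endothelial markers, 5 of them low, and 5 cell cycle markers 0 were called in KO against WT. The endothelial marker Emcn, 1 of the low ones, was higher in KO than WT by 0.99 (limma adjusted p = 3.3e-07). Against Het it rose by 1.23. Past the adjusted p threshold 4 cell cycle markers were lower and 0 higher in KO against WT. In a total RNA sample fewer cells of a type and less RNA per cell cannot be told apart.

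**Figure D1:**
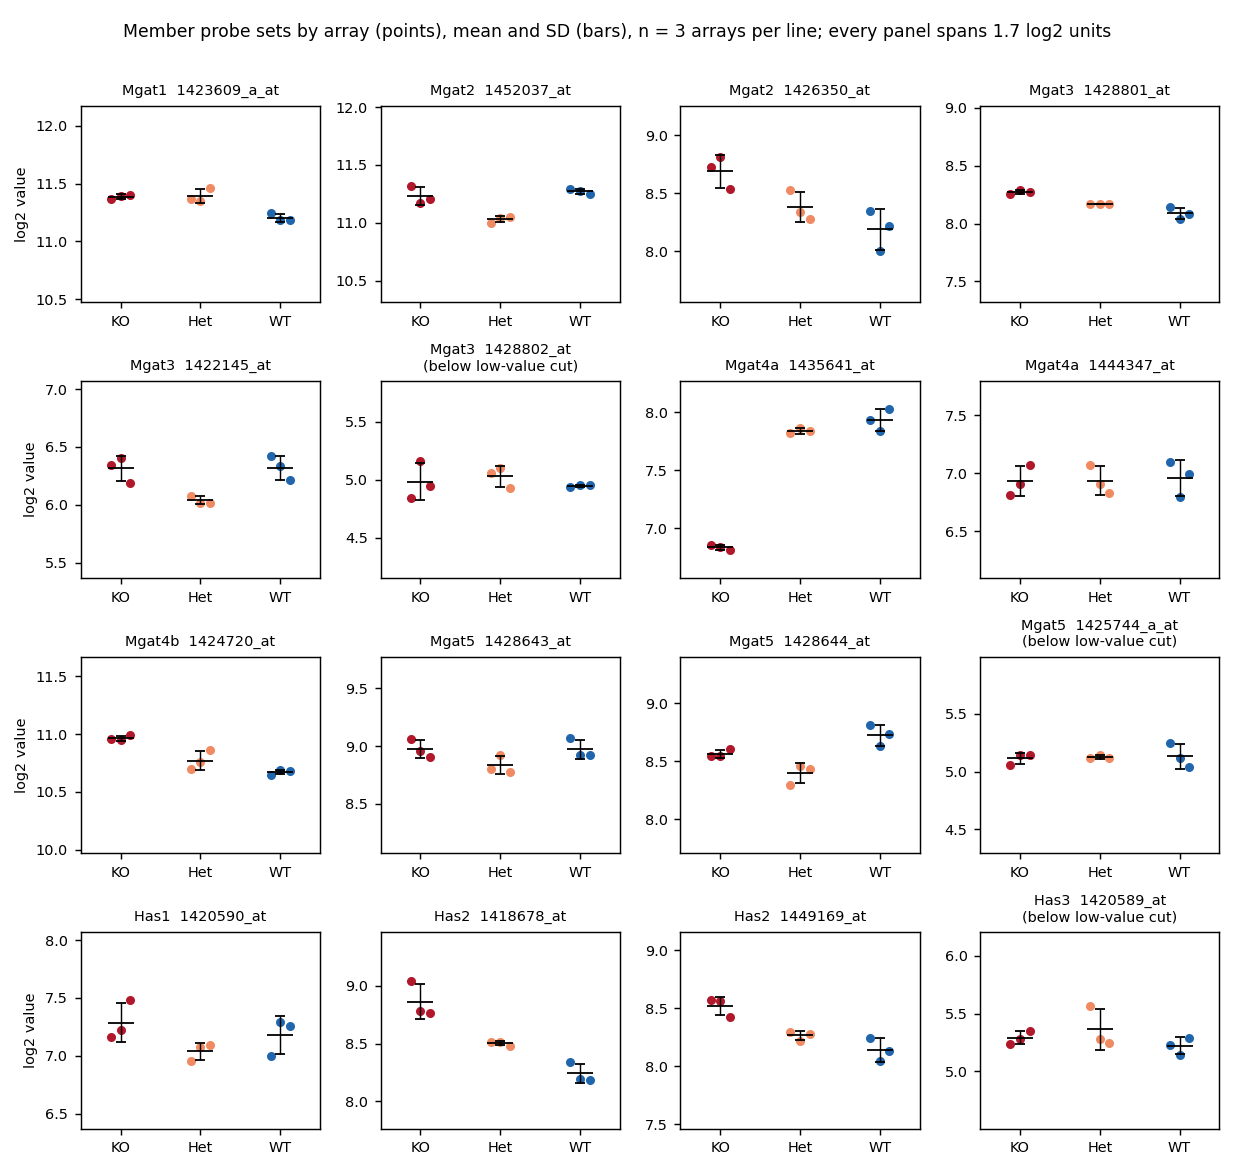
Deposited log2 values of the 16 member probe sets in the KO, Het and WT lines, with points for the 3 arrays of a line and bars for their mean and SD; every panel spans the same range on its vertical axis. Mgat4a at probe set 1435641_at has its 3 KO arrays between 6.81 and 6.86 and all Het and WT arrays between 7.82 and 8.03, and the KO arrays of both Has2 probe sets lie above the Het and WT arrays.

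In the KO line 1 of these genes was called, Mgat4a, which fell against WT as well as against Het. Has2 was higher in KO than in WT at both of its probe sets, by 1.54-fold and 1.30-fold. Mgat2 was higher by 1.42-fold at 1426350_at but not at 1452037_at. Mgat4b was higher by 1.23-fold, Mgat3 at 1428801_at by 1.14-fold and Mgat1 by 1.13-fold. In the comparison of KO with WT 1 of 16 member probe sets was called, where 1.86% of all probe sets were (0.646% higher and 1.21% lower). A further 6 passed the adjusted p threshold short of 2-fold, all of them higher in KO, for a total of 7 of 16 (43.8%), where 28.9% of all probe sets passed (14.2% higher and 14.8% lower). The arrays of the lines did not overlap for 8 of 16 members, 6 higher and 2 lower in KO, where this held for 40.7% of all probe sets (20.4% higher and 20.3% lower). The median log2 difference was 0.052 over the members and 0.0058 over all probe sets.

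**Figure D2:**
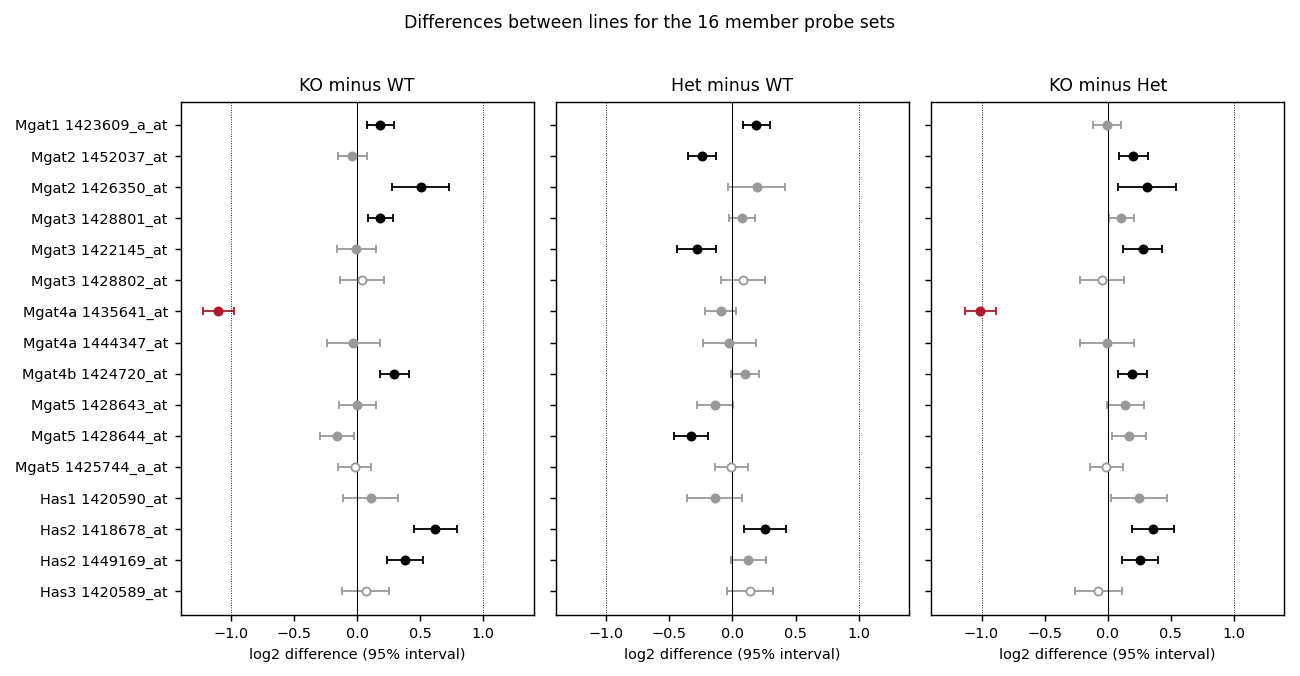
Log2 differences of the 16 member probe sets in the 3 comparisons, with 95% intervals from limma; red marks called probe sets, black those past the adjusted p threshold alone, grey the others, open symbols those below the low-value limit, and dotted lines 2-fold. Only Mgat4a at 1435641_at reaches 2-fold, at -1.10 for KO minus WT and -1.01 for KO minus Het.

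Mgat4a encodes a transferase that adds a branch to the arm of the N-glycan core begun by MGAT1, and it is known for glycosylating the glucose transporter GLUT2 in pancreatic beta cells. Probe set 1435641_at read 6.86, 6.84 and 6.81 in the KO arrays, 7.82, 7.87 and 7.84 in the Het arrays and 7.94, 7.84 and 8.03 in the WT arrays. All KO arrays lay below all Het and WT arrays, and the Het and WT arrays overlapped. The KO line was lower than WT by a log2 difference of -1.10 (95% interval -1.22 to -0.98), 2.15-fold, with a limma adjusted p of 1.7e-07. Against Het the difference was -1.01 (-1.13 to -0.89), with a limma adjusted p of 6.0e-07. That value lies close to the 2-fold limit: it was -0.97 with quantile normalization, -0.96 with median centring, -0.9955 without KO replicate 3 and -0.9949 without Het replicate 2. The Het line differed from WT by -0.09 (-0.22 to 0.029; limma adjusted p = 0.265).

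The remaining probe set of Mgat4a, 1444347_at, did not follow. It read 6.81, 6.91 and 7.07 in the KO arrays, 7.07, 6.91 and 6.83 in the Het arrays and 7.10, 6.79 and 6.99 in the WT arrays, with all lines overlapping. Its log2 difference between KO and WT was -0.032 (95% interval -0.24 to 0.18; limma adjusted p = 0.842), and the interval excludes 2-fold. Within arrays, 1435641_at minus 1444347_at was -0.10 ± 0.15 in KO, 0.91 ± 0.14 in Het and 0.98 ± 0.12 in WT arrays (SD, n = 3 each). With the mean of the probe sets, Mgat4a had a log2 difference of -0.57 between KO and WT and of -0.51 between KO and Het, and was called in neither comparison. The target positions of the probe sets were not used here, so which transcripts each one reads cannot be stated. The fall of Mgat4a in KO against WT went with that of the macrophage and blood markers, whose median log2 difference was -1.75. In Het against WT the median of these markers was -0.35. Past the adjusted p threshold 14 of 19 were lower there and 0 higher, where 13.5% of all genes were lower and 8.25% higher. Mgat4a at 1435641_at differed by -0.09 between Het and WT and did not pass. The part of these markers in the fall of Mgat4a was not tested.

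Promoter sequences are shown for Mgat4a, the only member called, at both of its annotated starts, and for Mgat2 and Mgat5, which act before it or on the other arm and were not called. The table of promoters used here, taken from RefSeq with the build GRCm38.p6, gave sequences for 5 of the 9 genes, namely Mgat1, Mgat2, Mgat4a, Mgat5 and Has1, with 8 starts. Each sequence gives the 250 bases before the start, 5′ to 3′ on the strand of the gene. Capitals mark matches on either strand to the motifs searched, which were the GC box GGGCGG, the CCAAT box CCAAT, the TATA box TATAAA, the cAMP response element TGACGTCA and the ETS motif CCGGAAG.
Mgat4a, first start, chr1:37541017-37541266, minus strand: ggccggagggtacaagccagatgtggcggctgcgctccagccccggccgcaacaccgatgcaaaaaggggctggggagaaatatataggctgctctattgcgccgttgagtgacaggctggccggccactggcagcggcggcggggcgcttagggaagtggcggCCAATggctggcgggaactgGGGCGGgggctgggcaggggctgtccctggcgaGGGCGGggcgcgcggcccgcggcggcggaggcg
Mgat4a, other start, chr1:37536405-37536654, minus strand: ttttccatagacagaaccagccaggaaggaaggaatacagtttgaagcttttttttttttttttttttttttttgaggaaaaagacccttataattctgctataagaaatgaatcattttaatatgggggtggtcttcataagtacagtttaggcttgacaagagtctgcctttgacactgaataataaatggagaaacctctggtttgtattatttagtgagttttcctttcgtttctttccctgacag
Mgat2, chr12:69183908-69184157, plus strand: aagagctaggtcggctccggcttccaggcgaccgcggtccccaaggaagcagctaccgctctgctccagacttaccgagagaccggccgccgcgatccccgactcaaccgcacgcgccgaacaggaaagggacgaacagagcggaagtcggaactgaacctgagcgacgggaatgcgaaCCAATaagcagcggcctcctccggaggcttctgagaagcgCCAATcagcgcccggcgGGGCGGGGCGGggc
Mgat5, chr1:127204736-127204985, plus strand: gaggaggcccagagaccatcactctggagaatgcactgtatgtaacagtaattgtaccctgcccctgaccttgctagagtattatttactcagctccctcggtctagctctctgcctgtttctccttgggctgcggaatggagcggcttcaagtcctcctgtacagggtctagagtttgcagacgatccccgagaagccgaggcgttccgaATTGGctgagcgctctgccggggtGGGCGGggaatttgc
The first Mgat4a start had a GC content of 72.4%, with 2 GC boxes and 1 CCAAT box, while the other start had 33.6% and 0 matches to any of the motifs. Mgat2 held 2 GC boxes that share a base with each other and 2 CCAAT boxes, and Mgat5 held 1 of each. No base lay in matches to more than a single kind of motif. Of all 32851 promoter windows in that table, 32.7% held a GC box, 33.8% a CCAAT box, 12.4% a TATA box, 1.55% the cAMP response element and 6.91% the ETS motif. The Has1 window held 1 cAMP response element and the first Mgat1 window 1 ETS motif. A match describes letters only and shows no binding.

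Mgat4b encodes the sister enzyme of MGAT4A and was higher in KO, the opposite direction. Its probe set read 10.96, 10.95 and 10.99 in the KO arrays, 10.70, 10.76 and 10.86 in the Het arrays and 10.65, 10.69 and 10.68 in the WT arrays. The KO arrays lay above all others, and the Het arrays just above the WT arrays. The log2 difference of KO from WT was 0.29 (95% interval 0.18 to 0.41; limma adjusted p = 0.00154), that of KO from Het 0.19 (0.079 to 0.31; limma adjusted p = 0.0178), and that of Het from WT 0.099 (-0.015 to 0.21; limma adjusted p = 0.209). These sizes are between 1.07-fold and 1.23-fold. The difference between KO and Het did not pass without KO replicate 3, Het replicate 1 or Het replicate 2 (limma adjusted p from 0.0534 to 0.0623).

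Mgat1, whose product opens the path to hybrid and complex N-glycans, read 11.37, 11.39 and 11.40 in the KO arrays, 11.37, 11.35 and 11.46 in the Het arrays and 11.25, 11.19 and 11.18 in the WT arrays. KO and Het overlapped, and both lay above WT. The log2 difference of KO from WT was 0.18 (95% interval 0.075 to 0.29, limma adjusted p = 0.0163). That of Het from WT was 0.19 (0.081 to 0.30, limma adjusted p = 0.0199), and KO differed from Het by -0.0057 (-0.11 to 0.10, limma adjusted p = 0.952). The difference between Het and WT did not pass with median centring (limma adjusted p = 0.0612). Nor did it pass without Het replicate 3, WT replicate 2 or WT replicate 3 (limma adjusted p from 0.0559 to 0.0647). Without WT replicate 3 the difference between KO and WT did not pass either (limma adjusted p = 0.056).

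Mgat2 gave different pictures at its probe sets. At 1452037_at it read 11.32, 11.17 and 11.21 in the KO arrays, 11.002, 11.04 and 11.05 in the Het arrays and 11.29, 11.28 and 11.25 in the WT arrays. Only the Het arrays stood apart, below the rest: Het was lower than WT with a log2 difference of -0.24 (limma adjusted p = 0.00784) and KO higher than Het by 0.20 (limma adjusted p = 0.0135), while KO and WT overlapped (-0.038; limma adjusted p = 0.639). At 1426350_at the values were 8.73, 8.81 and 8.54 in the KO arrays, 8.53, 8.34 and 8.28 in the Het arrays and 8.35, 8.002 and 8.22 in the WT arrays. There KO was higher than WT by 0.50 (95% interval 0.28 to 0.73; limma adjusted p = 0.00381) and than Het by 0.31 (limma adjusted p = 0.0466), and Het overlapped with WT (0.19; limma adjusted p = 0.222).

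Mgat3, which adds the bisecting GlcNAc, was likewise split. Probe set 1428801_at read 8.26, 8.29 and 8.27 in the KO arrays, 8.17 in each of the Het arrays and 8.14, 8.04 and 8.09 in the WT arrays, so that the lines did not overlap and stood in the order KO, Het, WT. KO was higher than WT by 0.18 (95% interval 0.084 to 0.28; limma adjusted p = 0.0109), while KO against Het (0.11; limma adjusted p = 0.110) and Het against WT (0.076; limma adjusted p = 0.270) did not pass. The difference between KO and Het did pass with quantile normalization (0.15, limma adjusted p = 0.0294) and with median centring (0.16, limma adjusted p = 0.0238). Probe set 1422145_at, whose Het mean of 6.04 was below the low-value limit, read 6.35, 6.40 and 6.19 in the KO arrays, 6.08, 6.02 and 6.02 in the Het arrays and 6.42, 6.33 and 6.21 in the WT arrays. Here only the Het arrays were lower, with a log2 difference of -0.28 from WT (limma adjusted p = 0.0159), and KO was higher than Het by 0.28 (limma adjusted p = 0.0132). The low probe set 1428802_at ran from 4.84 to 5.16 over all arrays, with overlap between all lines.

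Mgat5 encodes the enzyme whose branch is the preferred site for extension with poly-N-acetyllactosamine, the ligand of galectins. Probe set 1428643_at read 9.06, 8.95 and 8.91 in the KO arrays, 8.80, 8.92 and 8.78 in the Het arrays and 9.07, 8.92 and 8.93 in the WT arrays. The lines overlapped, and KO differed from WT by 0.0017 (95% interval -0.14 to 0.15; limma adjusted p = 0.989). At 1428644_at the values were 8.55, 8.54 and 8.60 in the KO arrays, 8.30, 8.46 and 8.44 in the Het arrays and 8.81, 8.63 and 8.73 in the WT arrays, with no overlap, the Het arrays lowest and the KO arrays between Het and WT. Het was lower than WT with a log2 difference of -0.33 (-0.47 to -0.19; limma adjusted p = 0.00415); KO against WT (-0.16; limma adjusted p = 0.0793) and KO against Het (0.17; limma adjusted p = 0.0726) did not pass. The low probe set 1425744_a_at ran from 5.04 to 5.25 over all arrays.

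Has2 encodes the main hyaluronan synthase of fibroblasts and passed the adjusted p threshold in all 3 comparisons at 1 of its probe sets. At 1418678_at it read 9.04, 8.78 and 8.77 in the KO arrays, 8.51, 8.51 and 8.48 in the Het arrays and 8.34, 8.20 and 8.19 in the WT arrays, with no overlap between any of the lines and the order KO, Het, WT. The KO line was higher than WT by a log2 difference of 0.62 (95% interval 0.45 to 0.79; limma adjusted p = 1.2e-04) and higher than Het by 0.36 (0.19 to 0.53; limma adjusted p = 0.00497). Het was higher than WT by 0.26 (0.092 to 0.43; limma adjusted p = 0.0340). This difference between Het and WT did not pass with median centring (limma adjusted p = 0.0562). Nor did it pass without Het replicate 1, 2 or 3 or WT replicate 2 or 3 (limma adjusted p from 0.0721 to 0.0967). Its size stayed between 0.23 and 0.31 over left-out arrays. The other probe set, 1449169_at, read 8.57, 8.56 and 8.43 in the KO arrays, 8.30, 8.22 and 8.28 in the Het arrays and 8.24, 8.05 and 8.13 in the WT arrays. KO lay above the others there too: it was higher by 0.38 against WT (0.24 to 0.52; limma adjusted p = 0.0011) and 0.25 against Het (limma adjusted p = 0.0130), while Het and WT overlapped (0.13; limma adjusted p = 0.193). All of these differences were short of 2-fold, and each interval excludes 2-fold.

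Has1 and Has3 did not pass in any comparison of the deposited values without a block. Has1 read 7.16, 7.22 and 7.48 in the KO arrays, 6.96, 7.07 and 7.09 in the Het arrays and 6.99, 7.29 and 7.26 in the WT arrays. The KO arrays lay above the Het arrays (0.25, 95% interval 0.029 to 0.47; limma adjusted p = 0.0946), and WT overlapped with both. This difference did pass with quantile normalization (0.31; limma adjusted p = 0.0496), with median centring (0.30; limma adjusted p = 0.0484) and with a replicate block (limma adjusted p = 0.0307), and it was 0.15 without KO replicate 3 (limma adjusted p = 0.296). Its difference between KO and WT was 0.11 (-0.11 to 0.32; limma adjusted p = 0.474). Has3 was below the low-value limit in every array, at 5.24, 5.28 and 5.35 in KO, 5.56, 5.28 and 5.25 in Het and 5.23, 5.14 and 5.29 in WT arrays. The lines overlapped there.

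In the comparison of Het with WT 0 of 16 member probe sets were called, where 0.246% of all probe sets were (0.0955% higher and 0.151% lower). The adjusted p threshold was passed by 5 of 16 (31.2%), where 21% of all probe sets passed (10.1% higher and 10.9% lower): Mgat1 and Has2 (1418678_at) were higher, and Mgat2 (1452037_at), Mgat3 (1422145_at) and Mgat5 (1428644_at) were lower. Arrays did not overlap for 7 members (43.8%), 4 higher and 3 lower in Het, where this held for 36.8% of all probe sets (18.8% higher and 18% lower). The count past the threshold rested on single arrays and on the scaling. It was 3 without Het replicate 2, 2 without Het replicate 3 and 3 without WT replicate 2 or WT replicate 3. With median centring 0 were higher and 3 lower; the same step moved the share of higher ones among all probe sets past the threshold to 35.8%, against 48.1% on the deposited values. The median log2 difference of the members was 0.033, and that of all probe sets 0.014.

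Between KO and Het 1 of 16 member probe sets was called, Mgat4a, where 1.05% of all probe sets were (0.415% higher and 0.637% lower). The adjusted p threshold was passed by 7 (43.8%), where 26.6% of all probe sets passed (13.1% higher and 13.5% lower). Of the members 6 were higher in KO, namely both probe sets of Mgat2 and of Has2, Mgat3 (1422145_at) and Mgat4b. Arrays of the lines did not overlap for 10 of the 16 (62.5%), 9 of them higher in KO, where this held for 39.5% of all probe sets (18.7% higher and 20.8% lower). The count past the threshold was 4 without KO replicate 2 or without Het replicate 2. With median centring 10 were higher and 1 lower, and the share of higher ones among all probe sets past the threshold was 63.5%, against 49.2% on the deposited values. The comparisons with WT share its arrays, and those with Het likewise, so they are not independent of each other.

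**Figure D3:**
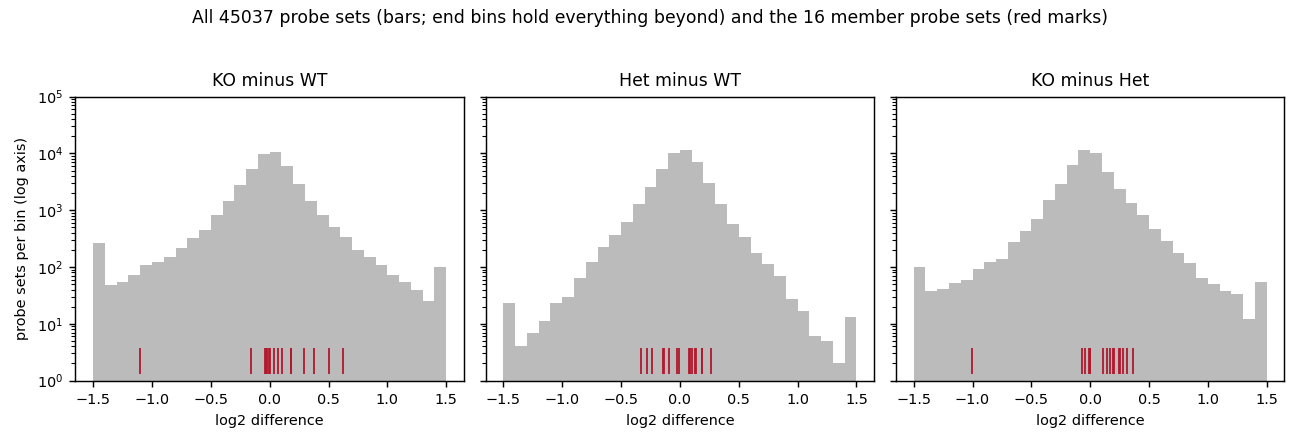
Number of probe sets by log2 difference in bins of 0.1, on a log axis, for all 45037 non-control probe sets (grey; the end bins hold everything beyond) and the 16 member probe sets (red marks). Apart from Mgat4a, at -1.10 for KO minus WT and -1.01 for KO minus Het, the members lie between -0.33 and 0.62.

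Genes of the surrounding pathways were taken 1 probe set each, the one with the highest mean, and tested among 18193 genes, of which 2.66% were called in KO against WT (0.753% higher, 1.91% lower), 0.198% in Het against WT (0.0385% higher, 0.159% lower) and 1.5% in KO against Het (0.5% higher, 0.995% lower). The adjusted p threshold alone was passed by 38.5% of all genes in KO against WT (15.7% higher, 22.8% lower), 21.7% in Het against WT (8.25% higher, 13.5% lower) and 35.7% in KO against Het (16.1% higher, 19.6% lower). The median log2 difference over all genes was -0.019 in KO against WT. The 24 other genes of N-glycan trimming and terminal processing held 0 calls in any comparison; in KO against WT 3 were higher and 10 lower past the adjusted p threshold, with a median of -0.12. The lowest of them was Man1a, a Golgi mannosidase that trims the core before MGAT1 acts. It read 9.92, 9.97 and 9.88 in the KO arrays, 10.10, 10.11 and 10.04 in the Het arrays and 10.75, 10.71 and 10.76 in the WT arrays, so that KO was lower than WT with a log2 difference of -0.82 (limma adjusted p = 1.5e-07) and Het lower than WT with -0.66 (limma adjusted p = 7.1e-06). Its other probe set was lower in KO with a log2 difference of -0.85. Man1c1, another such mannosidase, was lower with a log2 difference of -0.46 in KO against WT (limma adjusted p = 1.4e-04). Assembly of the lipid-linked precursor and its transfer to protein, with 22 measured genes, held 0 calls, 3 higher and 6 lower past the threshold in KO against WT and a median of -0.027. Its widest differences were -0.29 for the mannosyltransferase gene Alg12 (limma adjusted p = 0.00103) and 0.25 for the oligosaccharyltransferase gene Stt3a (limma adjusted p = 0.00492).

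Other transferases that use UDP-GlcNAc numbered 23 and held 0 calls, with 4 higher and 8 lower past the threshold in KO against WT and a median of -0.060. Gcnt1, which branches mucin-type O-glycans, read 6.67, 6.60 and 6.55 in the KO arrays, 7.09, 6.93 and 7.06 in the Het arrays and 7.58, 7.44 and 7.55 in the WT arrays, with no overlap. It was lower than WT with a log2 difference of -0.92 in KO (limma adjusted p = 6.6e-07) and of -0.49 in Het (limma adjusted p = 3.0e-04), though its other probe set gave -0.28 for KO. B3gnt8, which extends branched N-glycans with poly-N-acetyllactosamine, was lower in KO with a log2 difference of -0.88 against WT (limma adjusted p = 9.9e-06), with a KO mean of 5.92 below the low-value limit. Genes of UDP-GlcNAc synthesis, salvage and hexosamine phosphate breakdown numbered 10, with 0 called, 4 higher and 5 lower past the threshold in KO against WT and a median of -0.047. The 4 higher genes encode enzymes of the synthesis steps: Gfpt1 (log2 difference 0.24; limma adjusted p = 0.00129), Gnpnat1 (0.15; limma adjusted p = 0.0368), Pgm3 (0.43; limma adjusted p = 1.1e-04) and Uap1 (0.26; limma adjusted p = 0.00342). Gfpt2, which like Gfpt1 serves the entry step, did not pass (0.10; limma adjusted p = 0.225). Of the 5 lower genes 3 encode enzymes that deaminate or deacetylate hexosamine phosphates, Gnpda1 (-0.36), Gnpda2 (-0.20) and Amdhd2 (-0.36). Uap1l1, a relative of the enzyme for the last step, was lower with a log2 difference of -0.67 (limma adjusted p = 8.9e-07) and the salvage kinase gene Nagk with -0.44 (limma adjusted p = 4.6e-05). In Het against WT 0 of the 10 genes were higher and 5 lower past the threshold. These were Gnpda1 (-0.51), Gnpda2 (-0.39), Amdhd2 (-0.24), Uap1l1 (-0.40) and the synthesis gene Gnpnat1 (-0.25). Gnpda2 was higher in KO than in Het by 0.19 (limma adjusted p = 0.00428). The 10 genes of nucleotide sugar transport and UDP-glucuronate supply held 0 calls. In KO against WT 1 of them was higher and 4 lower past the threshold, with a median of -0.059. The higher gene was Slc35d1, a transporter of UDP-glucuronate and UDP-N-acetylgalactosamine into the endoplasmic reticulum (0.54; limma adjusted p = 1.6e-04), and Slc35b4, a transporter of UDP-xylose and UDP-GlcNAc, was lower with a log2 difference of -0.40 (limma adjusted p = 4.7e-05).

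Hyaluronan receptors and degrading enzymes held calls in both directions. Of 13 measured genes 2 rose and 1 fell in KO against WT, where 0.753% of all genes rose and 1.91% fell, and the median was 0.066. Past the adjusted p threshold 4 were higher and 4 lower, the called genes included. Cd44, the main surface receptor for hyaluronan, read 12.62, 12.54 and 12.44 in the KO arrays, 12.04, 11.96 and 11.91 in the Het arrays and 11.51, 11.50 and 11.43 in the WT arrays, without overlap. It rose in KO by 1.06 (SE 0.056; limma adjusted p = 1.7e-07), and Het was higher than WT by 0.49 (limma adjusted p = 2.4e-04). Its other probe sets above the low-value limit gave 0.92 and 1.01 for KO against WT, but -0.23 and 0.23 for Het against WT, so the direction in Het differed between probe sets. Cemip, which encodes a protein needed for breaking down hyaluronan in skin fibroblasts, read 12.09, 12.08 and 12.01 in the KO arrays, 11.11, 11.12 and 11.04 in the Het arrays and 11.03, 10.99 and 10.98 in the WT arrays. It rose in KO by 1.06 against WT (SE 0.043; limma adjusted p = 2.4e-08), and 1 other probe set above the limit gave 0.62. With the mean of their probe sets neither Cd44 (0.74) nor Cemip (0.65) was called. That mean takes in a probe set below the low-value limit for each gene, at -0.038 for Cd44 and 0.27 for Cemip.

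The gene that fell was Stab1, a scavenger receptor of macrophages and sinusoidal endothelium. It read 8.30, 8.24 and 8.30 in the KO arrays, 10.19, 10.21 and 10.26 in the Het arrays and 10.53, 10.49 and 10.44 in the WT arrays. The fall in KO was -2.21 against WT (SE 0.043; limma adjusted p = 4.2e-10) and -1.94 against Het (limma adjusted p = 1.2e-09). Of the 19 macrophage and blood markers 18 fell in the same comparison with WT, and their part in the Stab1 result was not tested.

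Of 16 genes for hyaluronan-binding matrix proteins 0 rose and 2 fell in KO against WT, with a median of -0.11. Past the adjusted p threshold 2 were higher and 6 lower, the called genes included. The proteoglycan gene Ncan, whose product binds hyaluronan mainly in brain matrix, read 6.46, 6.47 and 6.69 in the KO arrays, 7.68, 7.86 and 8.01 in the Het arrays and 8.36, 8.21 and 8.16 in the WT arrays. It fell by 1.704 against WT (limma adjusted p = 1.8e-07) and fell by 1.31 against Het (limma adjusted p = 2.2e-06). Ptx3, a pentraxin that cross-links hyaluronan matrix, read 11.01, 11.01 and 10.93 in the KO arrays, 11.81, 11.80 and 11.88 in the Het arrays and 12.20, 12.26 and 12.07 in the WT arrays, and fell by 1.19 against WT (limma adjusted p = 5.4e-08). Neither was called in KO against WT with the mean of its probe sets, which gave -0.90 for Ncan and -0.83 for Ptx3. For Ncan that mean takes in a probe set below the low-value limit, at 0.10. Among 8 galectin genes 1 fell and 0 rose, with a median of -0.21, and 0 were higher and 4 lower past the adjusted p threshold. Lgals3, whose product binds the chains that extend MGAT5 branches and is also abundant in macrophages, read 10.73, 10.72 and 10.76 in the KO arrays, 12.07, 12.15 and 12.15 in the Het arrays and 12.72, 12.77 and 12.72 in the WT arrays. It fell by 2.001 against WT (SE 0.042; limma adjusted p = 4.2e-10), and the part of the macrophage markers in it was not tested.

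**Figure D4:**
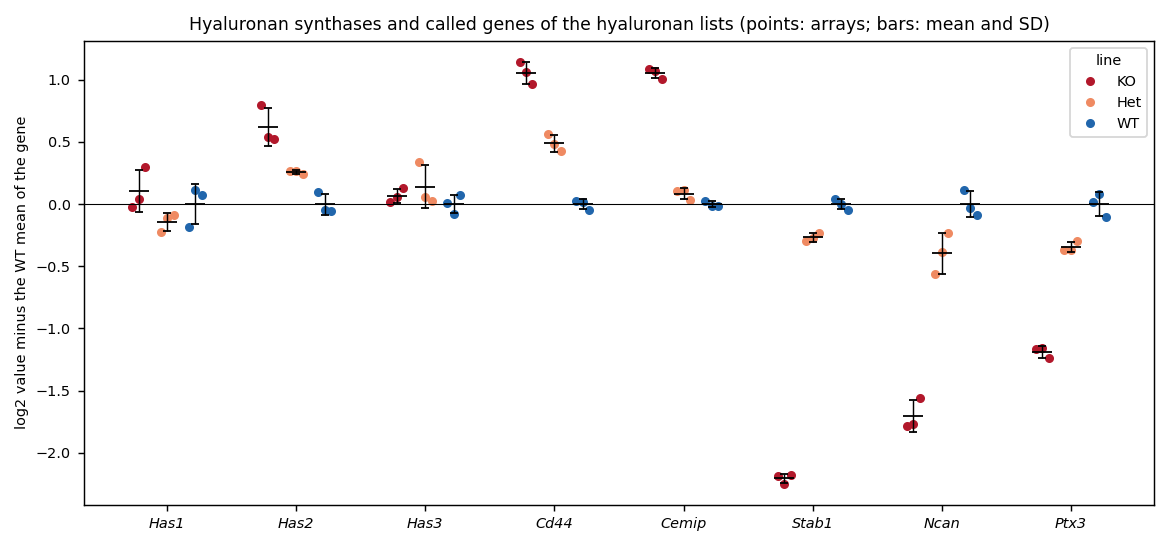
Log2 values of the 3 hyaluronan synthase genes and of the called genes of the hyaluronan lists, each minus its own WT mean, in KO, Het and WT arrays (points), with the mean and SD of 3 arrays (bars). Has2, Cd44 and Cemip lie above 0 in all KO arrays, while Stab1, Ncan and Ptx3 lie below it.

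The genes closest to Mgat4a in pattern were sought among 12382 genes above the low-value limit, by the root mean square difference over the 9 arrays after each gene's WT mean was subtracted. The nearest was the growth factor gene Igf1 at 0.040, followed by the collagen gene Col6a3 at 0.053 and the mitochondrial adenylate kinase gene Ak4 at 0.064. Their log2 differences between KO and WT were -1.14, -1.13 and -1.07, and those between Het and WT were -0.11, -0.055 and -0.18, beside -1.10 and -0.09 for Mgat4a. Igf1 had 3 other probe sets above the limit, which gave larger differences between Het and WT, at -0.45, -0.26 and -0.28. With the mean of its probe sets Ak4 gave -0.45 in KO against WT. The genes were ranked on the values of these same arrays, so their close differences follow from the ranking. The 9 arrays come from 3 lines, so the likeness rests on few independent points.

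**Figure D5:**
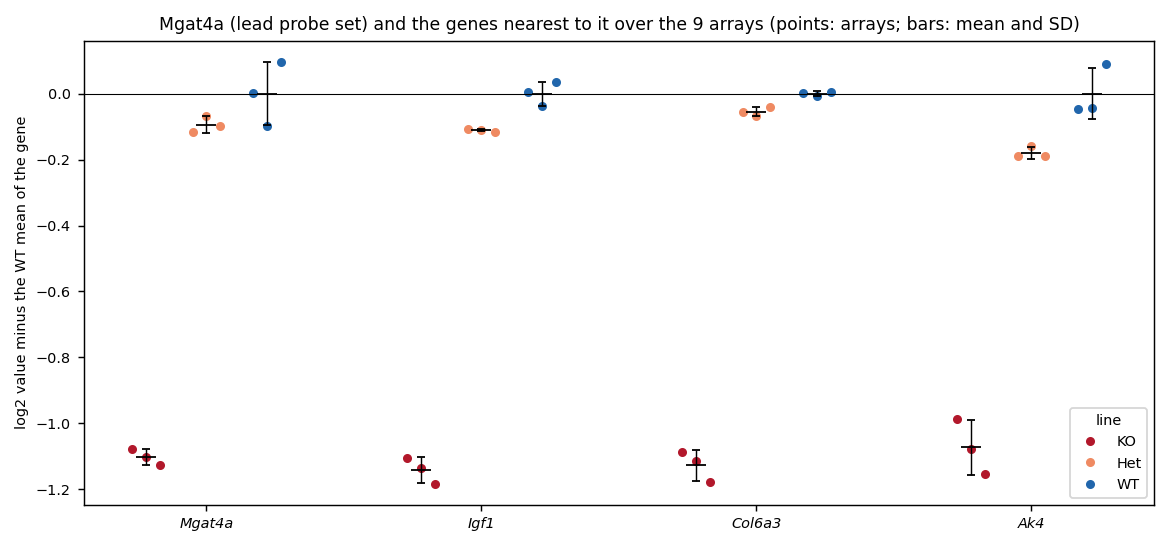
Log2 values of Mgat4a (1435641_at) and of the 3 genes nearest to it, each minus its own WT mean, in KO, Het and WT arrays (points), with the mean and SD of 3 arrays (bars). The mean KO value of the 4 genes lies between 1.07 and 1.14 below WT, and Het lies between 0.055 and 0.18 below WT on average.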

How the data were processed

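RNA was measured on 9 expression arrays, 3 for each of a KO, a Het and a WT line, and total RNA was extracted with Trizol and labelled with biotin per the labels' protocols. The deposited matrix has 45101 rows of log2 values, the log base being inferred from their range of 3.25 to 15.15. The submitters' processing notes list GCOS and Partek; the step each did and the normalization are not stated. With medians of 6.87 to 6.95 across arrays, no further scaling was applied. All 64 control rows were removed. By the platform annotation 34945 rows have a single symbol, 932 have more and 9160 have none; 0 rows with more than a single symbol name a member.

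Lines were compared with limma 3.58.1 (lmFit and eBayes, R 4.3.3) over all 45037 probe sets and all 9 arrays, with Benjamini-Hochberg adjustment per comparison; pathway lists used 1 probe set per gene. The steps were tested on simulated data. Members, lists and tests were chosen with earlier results of these data known. Named were all members, Oga, in each list up to 4 called genes or otherwise 2, by the size of KO minus WT, and the 3 genes nearest to each called member. Pdgfra, Emcn and the genes of UDP-GlcNAc metabolism other than Uap1l1 and Nagk were chosen after their values were seen. Replicate numbers did not pair the arrays. Alternatives covered normalization, centring, filters, probe set rule, fold minimum, block, variance and left-out arrays. Array data give no read depth. The number of arrays limits how precisely each line is measured, and the comparisons of genotypes rest on 1 line each. Figures used matplotlib 3.10.9.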

Additional observations from a re-analysis of the deposited data

How the results depend on the processing

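The call of Mgat4a between KO and WT held under all alternatives but 1: with the mean of probe sets 0 members were called (Mgat4a at -0.57). A 1.5-fold minimum called 2 of 16 member probe sets, adding Has2, where 2552 of 45037 probe sets passed. The Mgat4a call held with each array left out, where the count stayed at 1. Between KO and Het the count was 0 with quantile normalization, median centring or the mean of probe sets, and 0 to 1 over left-out arrays; in Het against WT it stayed at 0 throughout, where 1004 of 45037 probe sets passed a 1.5-fold minimum. The number past the adjusted p threshold was 7 in KO against WT and 6 to 8 over left-out arrays. In Het against WT, reported as 5, it was 3 with median centring, 1 probe set per gene or the mean of probe sets, and 2 to 5 over left-out arrays. In KO against Het, reported as 7, it was 11 with median centring, 4 with 1 probe set per gene or the mean of probe sets, and 4 to 7 over left-out arrays; the gene-level settings test 9 members. Has1 joined those past the threshold in KO against Het with quantile normalization, median centring and the replicate block. Of the values without a call, signs turned for Mgat1 in KO against Het with median centring (0.047) and over left-out arrays (-0.028 to 0.0285), for Has3 there over left-out arrays (-0.13 to 0.027), for Mgat5 in KO against WT (-0.042 to 0.050; -0.060 with the mean of probe sets), and with the mean of probe sets for Mgat2 in KO against WT (0.23) and Mgat3 in Het against WT (-0.041). Slc35d1 in Het against WT turned to -0.016 without WT replicate 2 (up to 0.135 without WT replicate 1). The causes were not tested. Replicate numbers were shared between lines, but the correlations of same-numbered arrays' deviations ran from -0.107 to 0.231 and 2 of 9 were highest for their own number; a replicate block left 1, 0 and 1 members called in KO against WT, Het against WT and KO against Het, and 7, 5 and 8 past the adjusted p threshold. Alternatives for the genes of the pathway lists were chosen after seeing the data. In KO against Het, median centring gave 2 called hyaluronan turnover genes, adding Cemip (1.02). In KO against WT, the mean of probe sets, low ones included, gave 1 such gene and 0 hyaluronan-binding matrix genes. Signal near background limits Has3, the low probe sets of Mgat3 and Mgat5, and Mgat3 at 1422145_at, which lay at the low-value limit.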
